A study of Danio rerio with 8 samples.

Results

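The transcription factors that set and keep the identity of liver cells were examined in whole liver of female zebrafish by RNAseq. Of 9 zebrafish symbols listed, 8 are reported: hnf4a, cebpa, cebpb, foxa1, foxa2, foxa3, prox1a and nr5a2. Each of these 8 matched exactly 1 of the 32520 Ensembl genes in the count tables, and all 8 passed the filter on low counts.

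The samples were livers of 4 fish fed the control diet (Control), a formulated diet with several protein sources, and of 4 fish fed the whole egg diet (Whole Egg), in which whole egg product replaced about 50% of the total protein. All 8 fish were females of 36 weeks that had received their diet from day 21. No strain or mutation is given for them. There was 1 library per fish. The fish of each diet are numbered 1 to 4 (Control-1, Whole Egg-1 and so on), and their values are given in the order of these numbers. The p-values measure the spread between these fish, and neither the labels nor the study's methods say which fish shared a tank. The comparison of Control with Whole Egg asked whether long-term feeding of whole egg changed gene expression in the liver. By the study's formulation, the whole egg diet also held more lipid and more energy than the control diet. A diet without egg that matched it in lipid was fed in the study but not sequenced. An effect of egg therefore cannot be told apart from one of dietary fat.

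Hepatocytes are made and maintained by a small network of transcription factors that bind the control regions of liver genes together and also regulate each other. The FOXA proteins are pioneer factors that open chromatin in the embryonic endoderm, PROX1 acts early in the liver bud, and HNF4A, C/EBPα and the nuclear receptor NR5A2 drive the genes of the mature hepatocyte, such as those for plasma proteins, lipoproteins and bile acid synthesis.

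The reads counted on genes numbered 16916307 in the shallowest library and 35871236 in the deepest. Levels are given as CPM, counts scaled to a common library size, after TMM normalization, a scaling that brings the bulk of the genes to the same level in every library. CPM are not corrected for gene length, so levels are compared between fish and not between genes. With this scaling, Whole Egg-2 stood apart from the other fish. The summed level of 24 matched hepatocyte genes (transferrin, fibrinogens, apolipoproteins and others) was 15835 CPM in Whole Egg-2 and lay between 37582 and 52711 CPM in the other 7 fish. The summed level of 11 ovary genes was 407 CPM in Whole Egg-2 and between 2.95 and 45.5 CPM in the others. Control-2 had the highest summed level of intestinal epithelium genes, 120 CPM against 2.47 to 7.71 CPM in the others, and of exocrine pancreas genes, 1665 CPM against 136 to 1243 CPM. In bulk tissue, fewer cells of a type and less RNA per cell cannot be told apart.

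No difference between the diets was detected for any of the liver transcription factors. By edgeR's quasi-likelihood test, 0 of the 8 genes passed an adjusted p of 0.1, as was the case for all genes, of which 0 of 13379 tested passed (0%). With an unadjusted p below 0.05 as the limit, edgeR and DESeq2 each counted 0 of the 8 genes. Of all genes, edgeR counted 522 (3.9%) and DESeq2 861, for which no share was computed. The Control and Whole Egg fish overlapped for every one of the 8 genes. Over all genes, the diets did not overlap for 2.14% (1.01% with Whole Egg higher and 1.13% with Whole Egg lower). With shares this small, 0 of 8 genes by overlap or by edgeR's unadjusted p does not set these genes apart from all genes. The fitted level was lower in Whole Egg for 6 of the 8 genes and higher for cebpa and cebpb, beside 45.8% of all genes with a lower and 54.2% with a higher fitted level. The median log2 fold change (Whole Egg minus Control) was −0.22 for the 8 genes, 0.04 for all genes and −0.27 for the hepatocyte genes.

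**Figure D1:**
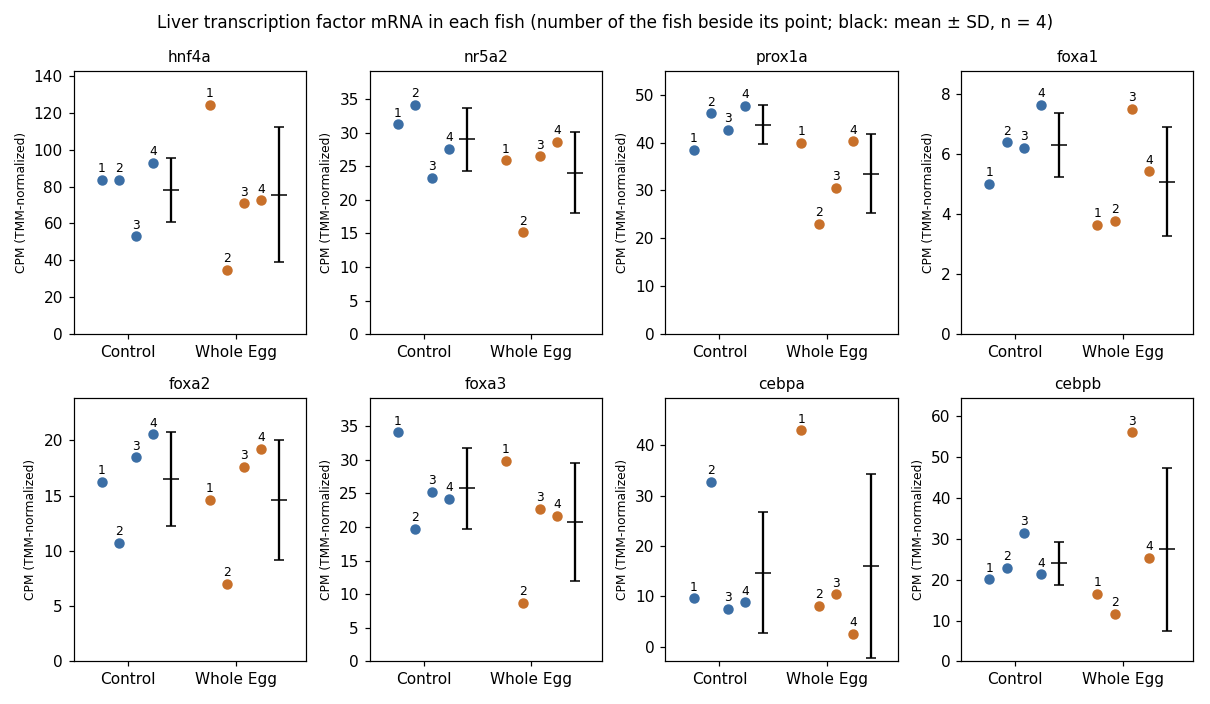
TMM-normalized CPM (y axis, 1 scale per gene) of each transcription factor in each fish, by diet. Points are single fish with the number of the fish beside them, and black bars are the mean ± SD of 4 fish. The lower SD bar of cebpa in Whole Egg reaches below 0 because the SD (18.3 CPM) is larger than the mean (16.0 CPM). The diets overlap in every panel, and Whole Egg-2 is the lowest fish in 6 of the 8 panels.

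Among the nuclear receptors, HNF4A is a central activator of hepatocyte genes. Its gene hnf4a (ENSDARG00000021494) was counted at 83.6, 83.5, 53.1 and 92.9 CPM in the Control fish, and at 124, 34.9, 70.9 and 72.6 CPM in the Whole Egg fish. The Whole Egg fish held both the highest and the lowest level of the 8 fish and enclosed all Control fish. The means were 78.3 ± 17.4 CPM in Control and 75.6 ± 36.7 CPM in Whole Egg (SD, n = 4 each). The log2 fold change was −0.05 (SE 0.37, adjusted p = 0.976 by edgeR), and 0.20 without Whole Egg-2. Its 95% interval over the 8 fish, from −0.88 to 0.78, spans 0.543- to 1.72-fold.

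NR5A2, also called LRH-1, is a nuclear receptor known for its control of bile acid and cholesterol genes. The gene nr5a2 (ENSDARG00000100940) was counted at 31.2, 34.1, 23.2 and 27.6 CPM in the Control fish, and at 25.9, 15.1, 26.5 and 28.6 CPM in the Whole Egg fish. Whole Egg-2 was lowest, and the other 3 Whole Egg fish lay within the range of the Control fish. The means were 29.0 ± 4.68 CPM in Control and 24.02 ± 6.04 CPM in Whole Egg, a log2 fold change of −0.27 (SE 0.25, adjusted p = 0.834 by edgeR) with an interval from −0.84 to 0.29. Without Whole Egg-2 it was −0.10.

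PROX1 is a homeobox factor required for hepatoblasts to leave the liver bud, and it also specifies lymphatic endothelium. The gene prox1a (ENSDARG00000055158) was counted at 38.5, 46.1, 42.7 and 47.6 CPM in the Control fish, and at 39.9, 23.1, 30.5 and 40.3 CPM in the Whole Egg fish. Whole Egg-2 and Whole Egg-3 were below every Control fish, while Whole Egg-1 and Whole Egg-4 were just above Control-1. With means of 43.7 ± 4.08 and 33.4 ± 8.26 CPM, prox1a had the smallest p of the 8 genes (unadjusted p = 0.128, adjusted p = 0.810 by edgeR) and a log2 fold change of −0.39 (SE 0.23, interval −0.91 to 0.14), which was −0.24 without Whole Egg-2. The summed level of 9 stellate and endothelial genes was 51.5 to 61.8 CPM in Control and 35.2 to 54.8 CPM in Whole Egg. It was lowest in Whole Egg-2 and next lowest in Whole Egg-3. The summed hepatocyte genes had the same order, at 15835 CPM in Whole Egg-2 and 37582 CPM in Whole Egg-3, close to 38653 CPM in Control-1. The part of either list in the prox1a values was not tested.

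The FOXA factors bind DNA through a forkhead domain. The gene foxa1 (ENSDARG00000102138) was counted at 4.999, 6.39, 6.21 and 7.63 CPM in the Control fish, and at 3.64, 3.78, 7.50 and 5.42 CPM in the Whole Egg fish. Whole Egg-1 and Whole Egg-2 were below every Control fish, and Whole Egg-3 was above all but Control-4. The means were 6.31 ± 1.08 and 5.09 ± 1.80 CPM, and the log2 fold change was −0.31 (SE 0.28, interval −0.95 to 0.33, adjusted p = 0.834 by edgeR), or −0.18 without Whole Egg-2. The lowest raw count of foxa1 was 74 reads, in Whole Egg-1, for which counting error alone gives an exact Poisson 95% interval of 2.86 to 4.57 CPM.

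FOXA2 acts in the endoderm and, in the adult, in bile acid and glucose metabolism. The gene foxa2 (ENSDARG00000003411) was counted at 16.3, 10.7, 18.5 and 20.6 CPM in the Control fish, and at 14.7, 7.03, 17.6 and 19.2 CPM in the Whole Egg fish. In each diet the fish numbered 2 was lowest and the fish numbered 4 was highest. The means of 16.5 ± 4.22 and 14.6 ± 5.41 CPM gave a log2 fold change of −0.18 (SE 0.34, interval −0.93 to 0.58, adjusted p = 0.905 by edgeR), which was 0.06 without Whole Egg-2.

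FOXA3 is strongly expressed in the adult mouse liver. The gene foxa3 (ENSDARG00000012788) was counted at 34.1, 19.7, 25.2 and 24.2 CPM in the Control fish, and at 29.8, 8.75, 22.7 and 21.7 CPM in the Whole Egg fish. Whole Egg-2 was again lowest, and the other Whole Egg fish lay within the Control range. The means were 25.8 ± 6.02 and 20.7 ± 8.77 CPM, and the log2 fold change was −0.31 (SE 0.36, interval −1.12 to 0.49, adjusted p = 0.856 by edgeR). Without Whole Egg-2 this value was −0.05.

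The C/EBP factors are leucine zipper proteins. C/EBPα drives genes of the quiescent, metabolic hepatocyte, and C/EBPβ rises in the acute phase response, in fasting and in regeneration. The gene cebpa (ENSDARG00000036074) was counted at 9.61, 32.7, 7.51 and 8.80 CPM in the Control fish, and at 43.0, 8.11, 10.4 and 2.53 CPM in the Whole Egg fish. In each diet 1 fish was far above the others (Control-2 and Whole Egg-1), and Whole Egg-4 was the lowest of all. The highest level was 16.98-fold the lowest. The range is wider than counting error, since the 42 reads of Whole Egg-4 have an exact Poisson 95% interval of 1.82 to 3.42 CPM. The means were 14.7 ± 12.1 and 16.0 ± 18.3 CPM. The log2 fold change of 0.13 (SE 0.80, adjusted p = 0.974 by edgeR) had an interval from −1.68 to 1.93, which spans 0.311- to 3.82-fold. Its sign was not settled by these fish. Leaving out 1 of 4 fish turned it, to −1.07 without Whole Egg-1, −0.03 without Control-1, −0.09 without Control-3 and −0.05 without Control-4. Without Control-2 it was 0.92, and without Whole Egg-2 0.36.

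The gene cebpb (ENSDARG00000042725) was counted at 20.1, 23.0, 31.5 and 21.3 CPM in the Control fish, and at 16.6, 11.7, 56.1 and 25.3 CPM in the Whole Egg fish. Whole Egg-3 was the highest fish, and Whole Egg-1 and Whole Egg-2 were below every Control fish. The means were 23.98 ± 5.16 and 27.4 ± 19.9 CPM, with a log2 fold change of 0.19 (SE 0.45, interval −0.82 to 1.21, adjusted p = 0.921 by edgeR) that was −0.41 without Whole Egg-3. Leaving out Whole Egg-2 gave 0.46. Whole Egg-3 also had the highest summed level of 12 immediate early and glucocorticoid response genes, 763 CPM against 134 to 471 CPM in the other fish. The part of such a response in the cebpb level was not tested.

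In the main fit (all 8 fish, TMM), the 95% interval of 5 of the 8 genes (hnf4a, foxa1, foxa2, prox1a and nr5a2) lay between 0.5- and 2-fold. A change of that size or more in either direction was outside it. For the other 3 (cebpa, cebpb and foxa3) the interval reached past at least 1 of these limits, and these 8 fish do not settle whether they changed by so much. This holds for the main fit only. The intervals in other settings were not computed, but some estimates there lay further from 0 or had a larger SE, so that an interval can pass a limit. With upper quartile scaling foxa1 was at −0.38 (SE 0.29), foxa2 at −0.23 (SE 0.35) and prox1a at −0.46 (SE 0.25). Scaled to the hepatocyte genes, foxa1 had an SE of 0.43. Without Whole Egg-1, hnf4a was at −0.40 (SE 0.33).

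**Figure D2:**
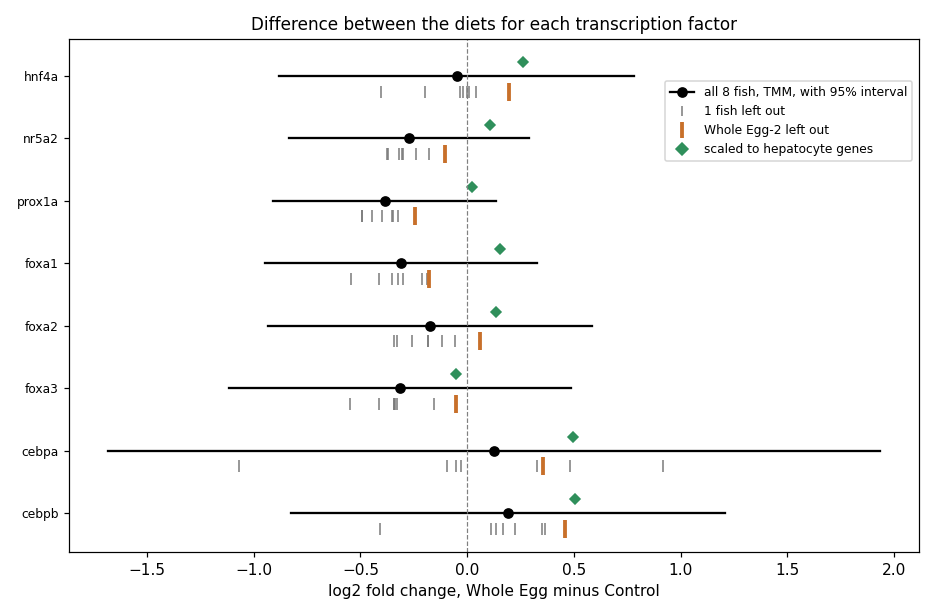
Log2 fold change (x axis, Whole Egg minus Control) of each transcription factor from edgeR. Black points and lines are the estimate from all 8 fish with its 95% interval, grey ticks the estimates with 1 fish left out, orange ticks those without Whole Egg-2, and green diamonds those scaled to the hepatocyte genes. Every black interval holds 0. The interval of cebpa, from −1.68 to 1.93, is the widest, and every diamond but that of foxa3 is above 0.

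The genes differed in how much they varied among fish of the same diet. The SD of log2 CPM within the diets was 1.36 for cebpa, larger than for 95.3% of the genes with a mean of at least 5 CPM, whose median SD was 0.42. It was 0.72 for cebpb (larger than 83.3% of genes), 0.59 for both hnf4a and foxa3, and 0.55 for foxa2. The steadiest were prox1a, with an SD of 0.29 (larger than 23.1% of genes), nr5a2 at 0.34 and foxa1 at 0.38.

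On the TMM scale, much of the spread of hnf4a, foxa2, foxa3, prox1a and nr5a2 belonged to Whole Egg-2. The extremes of cebpa lay in Whole Egg-1 and Whole Egg-4, cebpb was highest in Whole Egg-3, and foxa1 was lowest in Whole Egg-1. The TMM factor of Whole Egg-2, which multiplies the library size and so lowers the CPM, was 1.72. The factors of the other fish ran from 0.682 in Control-4 to 1.18 in Whole Egg-3. A factor from the hepatocyte genes was 0.710 in Whole Egg-2, the lowest of the 8 fish. The levels and percentages below hold for TMM scaling, and those of single fish with the other factor are not given. Relative to the median of the other 7 fish, Whole Egg-2 had 36.2% of foxa3, 39.9% of foxa2 and 41.7% of hnf4a. It had 50.8% of cebpb, 54.9% of nr5a2, 57.3% of prox1a and 60.8% of foxa1. The level of cebpa in Whole Egg-2 was 84.3% of that median. Whole Egg-2 was the lowest of the 8 fish for 6 of the 8 genes, against 25.9% of all genes and 21 of 24 hepatocyte genes (87.5%). The median level of the hepatocyte genes in Whole Egg-2 was 35.5% of that in the other fish, and of all genes 97.1%. All 9 ovary genes tested were highest in Whole Egg-2, and their part in the lower levels of the transcription factors was not tested.

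Without Whole Egg-2 the tilt towards lower values in Whole Egg was gone. The log2 fold change was then above 0 for 4 of the 8 genes, with a median of 0.00, and the median of the hepatocyte genes was −0.03. Scaling the libraries to the hepatocyte genes, a choice made after seeing the data, set their median near 0 and moved the median of all genes from 0.04 to 0.55. The log2 fold change was then above 0 for 7 of the 8 genes, the exception being foxa3 at −0.05, and their median was 0.14. Relative to the median of all genes each of the 8 was lower in Whole Egg on that scale, with differences from −0.04 for cebpb to −0.60 for foxa3. The lowest edgeR adjusted p of the 8 genes with this scaling was 0.555.

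**Figure D3:**
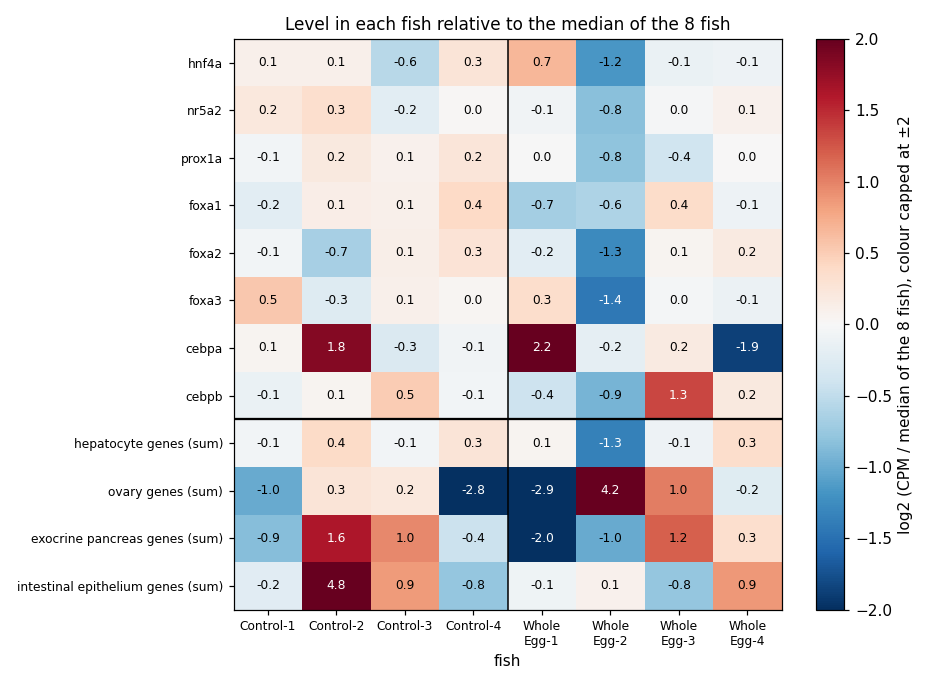
Level of each transcription factor, and of 4 summed lists of marker genes, in each fish as log2 of its CPM over the median of the 8 fish (colour and printed value, colour capped at 2 in either direction). The column of Whole Egg-2 is negative for every transcription factor and for the hepatocyte genes and positive for the ovary genes. The row of cebpa holds 2 strongly positive fish, Control-2 and Whole Egg-1, and 1 strongly negative fish, Whole Egg-4.

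The fish that set the extremes differed between genes. Control-4 was the highest fish for 3 of the 8 genes (prox1a, foxa1 and foxa2). Whole Egg-1 was highest for hnf4a and cebpa and lowest for foxa1. Whole Egg-3 was highest for cebpb, Control-1 for foxa3 and Control-2 for nr5a2. Summed over the 8 genes, the level was 208 to 256 CPM in Control and ranged from 112 CPM in Whole Egg-2 to 298 CPM in Whole Egg-1 among the Whole Egg fish.

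How the genes varied together was described by Pearson's r of log2 CPM over the 8 fish. These points share a library and its scaling, the groups and pairs of genes below were chosen after their values were seen, and no p is given. The genes hnf4a, foxa3, prox1a and nr5a2 had a median r of 0.76 over their 6 pairs (0.69 to 0.79). Over the 7 fish without Whole Egg-2 the median was 0.19 (−0.18 to 0.33), so with TMM scaling the likeness of these 4 genes rested on that fish.

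The pair of cebpb and foxa1 rested less on Whole Egg-2, with an r of 0.75 over 8 fish and 0.64 without it. In both genes Whole Egg-1 and Whole Egg-2 were below every Control fish. The pair of foxa2 and foxa3 had the highest r of all over 8 fish, 0.79, and 0.17 without Whole Egg-2.

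The gene cebpa had a median r of 0.18 over its 7 pairs. Its highest r was with hnf4a, 0.49 over 8 fish and 0.61 without Whole Egg-2, and both genes were highest in Whole Egg-1. Without Whole Egg-2 it ran opposite to foxa2 (r = −0.76, against −0.31 over 8 fish). In the same 7 fish cebpb ran opposite to prox1a (r = −0.67, against 0.19 over 8 fish) and to hnf4a (r = −0.66, against 0.13). Of all 28 pairs, 25 had a positive r over the 8 fish and 14 without Whole Egg-2.

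**Figure D4:**
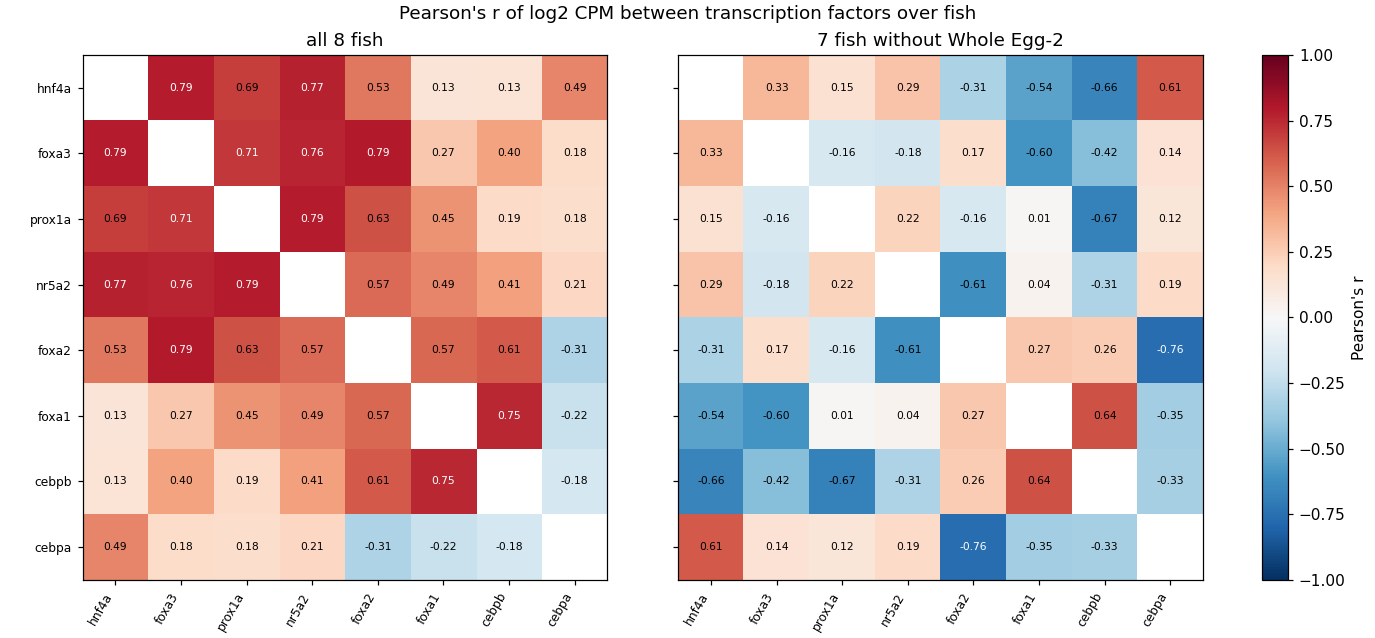
Pearson's r of log2 CPM (colour and printed value) for each pair of transcription factors over all 8 fish (left) and over the 7 fish without Whole Egg-2 (right). The block of hnf4a, foxa3, prox1a and nr5a2, with a median r of 0.76 on the left, fades to 0.19 on the right, and the pair of foxa1 and cebpb goes from 0.75 to 0.64.

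Ratios of counts within a fish do not depend on how libraries are scaled, and 3 were compared between the diets. The ratio of cebpa to cebpb counts was 0.478, 1.42, 0.238 and 0.413 in the Control fish, and 2.59, 0.694, 0.185 and 0.1 in the Whole Egg fish. It exceeded 1 only in Control-2 and Whole Egg-1 and ranged 25.9-fold over the 8 fish. The diets overlapped (exact permutation p = 0.886, two-sided over 35 splits, for which the smallest possible p is 0.0286).

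The ratio of foxa3 to foxa1 was 6.81, 3.08, 4.06 and 3.17 in the Control fish, and 8.19, 2.32, 3.03 and 4 in the Whole Egg fish, a 3.53-fold range (exact permutation p = 0.8286). Control-1 and Whole Egg-1 were the highest fish of their diets. The ratio of hnf4a to nr5a2 ran from 2.28 in Control-3 to 4.80 in Whole Egg-1 (exact permutation p = 0.629). Whole Egg-1 was thus at the top of each of the 3 ratios. Adjusted over the 3 ratios, every exact permutation p was 0.886.

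For each gene the 1 gene with the most similar pattern was taken among 5640 genes with a mean of at least 5 CPM, by r over the 8 fish. The best match of so many genes over so few fish has a high r by selection, and the matches are a description. For cebpa it was AASS, an enzyme of lysine breakdown, with an r of 0.973 over 8 fish and 0.997 without Whole Egg-2. AASS was counted at 14.6, 41.8, 11.8 and 13.2 CPM in the Control fish, and at 50.6, 8.34, 18.1 and 5.48 CPM in the Whole Egg fish. Control-2 and Whole Egg-1 were high and Whole Egg-4 was lowest, as for cebpa.

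For foxa3 the nearest gene was ESR1, the estrogen receptor alpha that drives yolk protein synthesis in female fish liver (r = 0.986 over 8 fish, 0.939 without Whole Egg-2). ESR1 was counted at 189, 78.9, 88.3 and 101 CPM in the Control fish, and at 177, 18.5, 96.1 and 80.5 CPM in the Whole Egg fish. Both genes were highest in Control-1 and Whole Egg-1 and lowest in Whole Egg-2.

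For hnf4a and foxa2 the nearest genes encode translation initiation factors, EIF4B (r = 0.968) and EIF3H (r = 0.981). For nr5a2 it was AIMP2 (r = 0.971), a scaffold of the tRNA synthetase complex, and for prox1a it was creg2 (r = 0.979). For foxa1 it was RAB5A (r = 0.961), a GTPase of early endosomes, and for cebpb SLC16A9 (r = 0.957), a transporter of the monocarboxylate carrier family. Over the 7 fish without Whole Egg-2 the r of these 6 matches lay between 0.871, for AIMP2, and 0.958, for EIF3H.

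The partners of these factors in the liver were examined as a list of other liver transcription factors, of which 29 of 37 matched and 27 were tested. None passed the edgeR test at an adjusted p of 0.1. The fitted level was lower in Whole Egg for 21 and higher for 6, with a median log2 fold change of −0.25. Whole Egg-2 was the lowest fish for 14 of the 27 (51.9%). Without Whole Egg-2, 14 were lower and 13 higher, and the median was −0.04. By an unadjusted p below 0.05 over the 8 fish, 2 were lower and 0 higher, against 1.36% and 2.54% of all genes.

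The first of these was hnf4g, a close relative of hnf4a, at 7.53, 6.34, 5.38 and 8.39 CPM in the Control fish, and at 4.38, 3.19, 4.08 and 5.73 CPM in the Whole Egg fish. Of the Whole Egg fish only Whole Egg-4 was above a Control fish, Control-3. The log2 fold change was −0.67 (SE 0.25, adjusted p = 0.810 by edgeR). The other was rxraa, a retinoid X receptor, the partner of many liver nuclear receptors, at 9.12, 7.52, 6.81 and 6.94 CPM in the Control fish, and at 4.13, 5.33, 3.47 and 6.45 CPM in the Whole Egg fish. All Whole Egg fish were below all Control fish, as for 1.13% of all genes, with a log2 fold change of −0.65 (SE 0.25, adjusted p = 0.810 by edgeR). Without Whole Egg-3 the log2 fold changes were −0.62 for hnf4g and −0.50 for rxraa. In that edgeR fit 0 genes of the list had an unadjusted p below 0.05. Without Whole Egg-2 the values were −0.55 and −0.71, and 2 genes of the list were lower at that limit. The most highly counted of the list were xbp1, a factor of the unfolded protein response, at 108 ± 89.4 CPM in Control and 91.1 ± 83.5 CPM in Whole Egg, and the liver X receptor nr1h3, at 67.1 ± 32.8 and 66.4 ± 19.6 CPM.

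Genes that HNF4A binds or controls in mammals were also taken as a list, and 13 were tested. None passed the test in either direction, none had an unadjusted p under 0.05, and 11 were lower and 2 higher in fitted level, with a median log2 fold change of −0.24. The list shares members with the hepatocyte genes, and 12 of the 13 were lowest in Whole Egg-2, without which 7 were lower and 6 higher and the median was −0.02. In that edgeR fit 1 of the 13 was higher with an unadjusted p under 0.05, and none passed an adjusted p of 0.1. Over all genes 364 had such an unadjusted p in either direction. No share of all genes was computed for that fit, so the 1 gene cannot be judged against one. The lipoprotein genes apobb.1 and apoa1b were at 7629 ± 1879 and 3753 ± 555 CPM in Control, and at 6551 ± 2199 and 3170 ± 1432 CPM in Whole Egg. The smallest p belonged to pck1, the gluconeogenic enzyme, at 53.3, 93.2, 120 and 58.0 CPM in the Control fish, and at 113, 4.01, 855 and 337 CPM in the Whole Egg fish. Whole Egg-3 and Whole Egg-4 were above every Control fish and Whole Egg-2 was below, so that the log2 fold change of 2.01 had an SE of 1.08 (adjusted p = 0.810 by edgeR). Without Whole Egg-2 the log2 fold change of pck1 was 2.44, and without Whole Egg-3 it was 0.91.

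Of the genes that C/EBP factors control in mammals, 9 were tested and none passed the edgeR test, with 6 lower and 3 higher in fitted level and a median log2 fold change of −0.15 (4 lower, 5 higher and a median of 0.09 without Whole Egg-2). Haptoglobin (hp), an acute phase protein that binds hemoglobin, was the 1 gene of the 9 with an unadjusted p under 0.05. Of all genes, 1.36% were lower at that limit. It was counted at 71.9, 70.7, 47.7 and 93.8 CPM in the Control fish, and at 19.6, 16.9, 47.3 and 19.2 CPM in the Whole Egg fish. All Whole Egg fish were below all Control fish, as for 1.13% of all genes, although Whole Egg-3 and Control-3 were close. The log2 fold change of hp was −1.46 (SE 0.38, unadjusted p = 0.00377, adjusted p = 0.810 by edgeR). Among the Whole Egg fish, hp and cebpb were both highest in Whole Egg-3 and lowest in Whole Egg-2, whereas among the Control fish Control-3 had the highest cebpb and the lowest hp. Another acute phase gene, crp2, was at 23.7 ± 6.71 CPM in Control and 47.2 ± 30.4 CPM in Whole Egg, or 33.2 ± 14.4 CPM in the 3 Whole Egg fish other than Whole Egg-2. The plasma proteins cp and fga were at 1355 ± 141 and 1296 ± 84.9 CPM in Control, and at 1218 ± 537 and 985 ± 395 CPM in Whole Egg. In the 3 Whole Egg fish other than Whole Egg-2 they were at 1437 ± 380 and 1176 ± 122 CPM. Of the 9 genes tested, 8 were lowest and 1 was highest in Whole Egg-2. The list shares tat, fga, fgb, fgg and cp with the hepatocyte genes and pck1 with the HNF4A list, so it does not stand apart from them.

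Of the genes that NR5A2 controls in mammals, 5 were tested, 0 of them passed the edgeR test or an unadjusted p under 0.05, and 3 were higher and 2 lower in fitted level (2 higher and 3 lower without Whole Egg-2). The gene of the bile acid enzyme cyp7a1 was at 8.88 ± 8.74 CPM in Control and 10.4 ± 11.01 CPM in Whole Egg. The sterol exporter gene abcg8 was at 24.4 ± 5.88 and 19.0 ± 3.25 CPM. The corepressor gene nr0b2b was at 0.647 ± 0.426 and 1.36 ± 1.101 CPM. The lipoprotein receptor gene scarb1 was at 3.30, 9.11, 4.34 and 3.92 CPM in the Control fish, and at 2.41, 38.5, 6.69 and 4.46 CPM in the Whole Egg fish. Whole Egg-2 alone was above the Control range. The log2 fold change of scarb1 was 1.34 over the 8 fish and −0.19 without Whole Egg-2.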

How the data were processed

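Whole livers of 8 female zebrafish were sequenced with a strand-specific kit. After trimming, the authors mapped the reads with STAR 2.5.2b on GRCz11, and the deposited values are raw counts of reads per gene and fish that were not normalized. Each file has counts without regard to strand and counts for either strand, and the strand with 97.9% of the counts of both was used. Rows that name no gene held 44.6% to 51.9% of the reads and were left out.

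Counts of 32520 genes were tested in R 4.3.3 with edgeR 4.0.16 (TMM, filterByExpr, quasi-likelihood test, Benjamini-Hochberg adjustment over the 13379 genes tested, adjusted p under 0.1). CPM were scaled by TMM, and 2 was the prior count for log2 CPM. The 95% intervals use the SE implied by the F statistic and the t distribution. Exact Poisson intervals cover counting error only. The scripts were tested on simulated data. The smallest chi-square per degree of freedom between any of the 28 pairs of libraries was 36.5, so none was a duplicate.

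Symbols came from a table of gene names, which matched 29201 identifiers, and from the symbol column of a table of the study. Coordinates and sequences were not used here, and 1 listed gene is not reported here. The genes and lists were chosen with earlier results of these data known. Besides the 9 symbols, the genes named came from the 2 most highly counted and the 2 with the smallest p in each list. The picks of the hepatocyte list and of the lists of other cell types were not reported singly for those lists. For each transcription factor the gene with the highest r was also named. Alternatives were DESeq2 1.42.0, RLE and upper quartile scaling, other filters, counts without strand, a stricter adjusted p (0.05), a block for the number of the fish, leaving out fish and, added after seeing the data, scaling to the hepatocyte genes.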

Additional observations from a re-analysis of the deposited data

Results flagged for a closer look

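Within Control, cebpa in Control-2 stood far from the other fish, at 32.7 CPM against 9.61 CPM in the nearest fish, so that 0.916 of the range of the 4 fish lay in that gap, more than Dixon's critical value for 4 fish. It was the only one of the 16 groups of 4 fish tested (8 genes in each diet) to do so, and chance flags about 1 in 20. Control-2 also had the highest summed levels of intestinal epithelium genes (120 CPM) and exocrine pancreas genes (1665 CPM). Whole Egg-1, in which cebpa was higher still (43.0 CPM), had 3.98 and 136 CPM of these. The part of other tissue in the cebpa level of Control-2 was not tested.

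Reads on the strand not used for the levels numbered 167 at foxa1 over the 8 fish, which was 14.1% of the reads of both strands at this gene, against 2.1% over all genes and at most 0.675% at the other 7 genes. There were 12 to 36 such reads in each fish, and Control and Whole Egg fish overlapped. They do not enter the foxa1 levels, and whether they come from an antisense or a neighbouring transcript was not tested.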

How the results depend on the processing

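Under every alternative 0 of the 8 transcription factor genes passed the threshold, and of 152 log2 fold changes recomputed for them 132 kept their sign. Over all genes the count of DEGs was 0 by edgeR and DESeq2, and 20 by DESeq2 with the replicate number as a block. To compare same-numbered fish, the mean of each diet was subtracted from the log2 CPM of every gene tested. Pearson's r was then taken over these genes between a Control and a Whole Egg fish. It describes what is left after the diet means, not the likeness of whole libraries. Same-numbered fish had r = 0.198, 0.352, 0.0787 and 0.451. The mean of these 4 was 0.270. For the numbers 1, 2 and 4 the highest r of the Control fish with another number was lower, at −0.00624, −0.0787 and 0.152. The numbers were not taken as pairs, since that needed r over 0.1 in every pair, and the fish numbered 3 had a higher r with another number (0.240). Whether same-numbered fish shared a batch was not tested. With the replicate block all 8 genes were below 0 (median −0.31), and the log2 fold change was −0.32 (edgeR) and −0.33 (DESeq2) for cebpa and −0.039 and −0.027 for cebpb. Without Control-2 and Whole Egg-2 hnf4a was at 0.23. Without Control-4 and Whole Egg-1 cebpa was at −1.25. Leaving out 1 fish at a time gave −0.40 to 0.20 for hnf4a, −1.07 to 0.92 for cebpa, −0.41 to 0.46 for cebpb and −0.34 to 0.061 for foxa2. Scaled to the hepatocyte genes, the values were 0.26 for hnf4a, 0.15 for foxa1, 0.13 for foxa2, 0.024 for prox1a and 0.11 for nr5a2. Alternatives with fewer fish or another scale differ by construction, and the cause of the reversals with the block was not tested. The foxa3 value stayed below 0 in all 19 alternatives, and those of foxa1, prox1a and nr5a2 in 18 each. The alternatives reuse the same fish, and foxa3 was at −0.05 both without Whole Egg-2 and scaled to the hepatocyte genes. With 4 fish per diet, the width of the intervals limits what can be said of cebpa.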

Other observations

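Immediate early and glucocorticoid response genes leaned the other way from the liver transcription factors. All 11 tested were higher in Whole Egg in fitted level, with a median log2 fold change of 1.04, but none passed the edgeR test (smallest adjusted p = 0.810) and 3 had an unadjusted p under 0.05. Of all genes tested, 54.2% were higher, 2.54% were higher with an unadjusted p under 0.05, and the median was 0.04. Much of the lean belonged to Whole Egg-3, without which 9 of the 11 were higher, the median was 0.21 and 1 had an unadjusted p under 0.05. Without Whole Egg-2, all 11 were higher and the median was 1.32. In that edgeR fit 5 had an unadjusted p under 0.05, and none passed an adjusted p of 0.1. Over all genes 364 had such an unadjusted p in either direction. No share of all genes was computed for that fit, so the 5 cannot be judged against one. The antiproliferative gene btg2 was at 1.37, 1.72, 2.79 and 1.51 CPM in Control-1 to Control-4 and at 2.31, 19.4, 10.1 and 3.19 CPM in Whole Egg-1 to Whole Egg-4, where 3 of 4 Whole Egg fish were above every Control fish. The stress gene ddit4 was at 3.57, 2.22, 6.65 and 9.97 CPM in the Control fish, and at 4.72, 22.04, 72.9 and 8.92 CPM in the Whole Egg fish, of which 2 were above every Control fish. The log2 fold change of btg2 was 2.23, and 1.49 without Whole Egg-2. That of ddit4 was 2.28, and 1.11 without Whole Egg-3. The glucocorticoid targets fkbp5 and tsc22d3 were at 121 ± 60.5 and 95.2 ± 33.3 CPM in Control, and at 160 ± 98.3 and 116 ± 63.5 CPM in Whole Egg. Both were lowest in Whole Egg-2, at 16.2 and 25.6 CPM. Their log2 fold changes were 0.41 and 0.29, and 0.79 and 0.63 without Whole Egg-2.

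Among lists of other cell types, none of the genes tested passed the edgeR test. None of the 5 endocrine pancreas genes passed the filter on low counts, so none was tested, and 2 of 6 intestinal epithelium genes were. The summed level of 8 bile duct genes was 165 to 221 CPM in Control and 119 to 208 CPM in Whole Egg. That of 7 macrophage and neutrophil genes was 11.2 to 18.2 CPM in Control and 8.40 to 12.4 CPM in Whole Egg, that of 4 erythroid genes 28.5 to 54.1 and 28.5 to 70.3 CPM, and that of 5 endocrine pancreas genes 0.137 to 1.14 and 0.422 to 7.18 CPM.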
